A study of Mus musculus with 12 samples.

Results

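Small RNA from Pdx1-Cre-labelled mouse cells at embryonic day (E) 9.5 was compared with that from Foxa2-CreER-labelled endoderm at E8.5, across all entries of a table of microRNA (miRNA) read counts. The comparison took 6 of the 12 sequenced libraries, 3 at each of these stages, and 966 of the 1053 entries of the table had at least 1 count in them. The E8.5 cells were marked by Foxa2-CreER, a tamoxifen-inducible Cre recombinase knocked into the endodermal gene Foxa2, with tamoxifen given to the pregnant dam, and were sorted from whole embryos. The E9.5 cells, labelled pancreas, carried Pdx1-Cre, a transgene driven by Pdx1, a gene of pancreas and duodenum, and were sorted from the trunk. Recombination turned on tdTomato, a red fluorescent protein encoded at the Rosa26 locus, and the fathers of both crosses carried 1 mir-302 allele replaced by eGFP, so the mir-302 genotype of a library's embryos is not known here. Cre driver, Cre timing and dissected region changed together with the stage, and so did a number in the library names, so the effects of stage, driver, region and any batch cannot be told apart. The labels number the libraries of a stage without saying whether they came from separate embryos or litters, so p-values measure the spread between these libraries, which may be in part technical.

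A miRNA is cut from a hairpin precursor, and the mature strand guides a silencing complex to messenger RNAs that pair with its seed, bases 2 to 8 from the 5′ end. Mature miRNAs with the same seed share most of their targets and are grouped as a family, also where they come from different genes. In the endoderm, the gut tube forms and its foregut gives rise to liver, pancreas and duodenum. Several miRNAs have known homes in this setting, such as miR-302 in pluripotent and early embryonic cells, miR-122 in hepatocytes, miR-7 and miR-375 in endocrine pancreas and the miR-200 family in epithelia.

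Depth differed between the stages. The E8.5 libraries held 386094 to 594224 counts and the E9.5 libraries 53996 to 80075, and the median total at E8.5 was 8.11 times that at E9.5. An entry with no count could therefore have reached 4.34 to 7.75 CPM (the count scaled to a common library total, with TMM factors) at E8.5 but 32.0 to 75.9 CPM at E9.5, the level that 3 counts represent. At least 10 counts were seen for 463 to 620 entries per library at E8.5 and for 176 to 258 at E9.5. E9.5 replicate 3 was the smallest library and stood apart in composition, with 28.3% of its counts in the precursor entries mir-6236 and mir-6240, against 12.7% and 14.0% in the other two E9.5 libraries and 1.16% to 2.28% at E8.5. Values are given for replicates 1, 2 and 3 of a stage in that order.

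Of the 571 entries with enough counts to be tested, 32 were called (edgeR quasi-likelihood test, Benjamini-Hochberg adjusted p under 0.05), which is 5.6% of those tested. A further count, of entries whose 3 E9.5 libraries lay all above or all below the 3 E8.5 libraries, came to 34.3% of the tested entries and to 28 of the 32 called. The 23 entries called higher (4.03% of those tested) were 18 mature miRNAs and 5 precursors, and the 9 called lower (1.58%) were all mature. The median log2 fold change of all tested entries was -0.84, so most entries lay lower at E9.5 in this fit. For the 170 entries with a mean of at least 1000 CPM at either stage, which held 31 of the 32 calls, it was 0.31. Scaling by RLE factors moved the median of all tested entries by 0.64 and gave 44 higher and 6 lower entries. Library totals alone moved it by -0.25 and gave 18 higher and 11 lower. The sign of the median was not stable. It was 0.17 over 370 tested entries after every library was thinned to the size of the smallest. In a fit of only the 6 libraries it was 0.04 over 401 tested entries. Both settings tested fewer entries, and the part of depth in the lower median of the main fit was not tested. Without E8.5 replicate 2 or without E8.5 replicate 3 the number of called entries was 21. The plot of fold change against level shows where the calls sit.

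**Figure D1:**
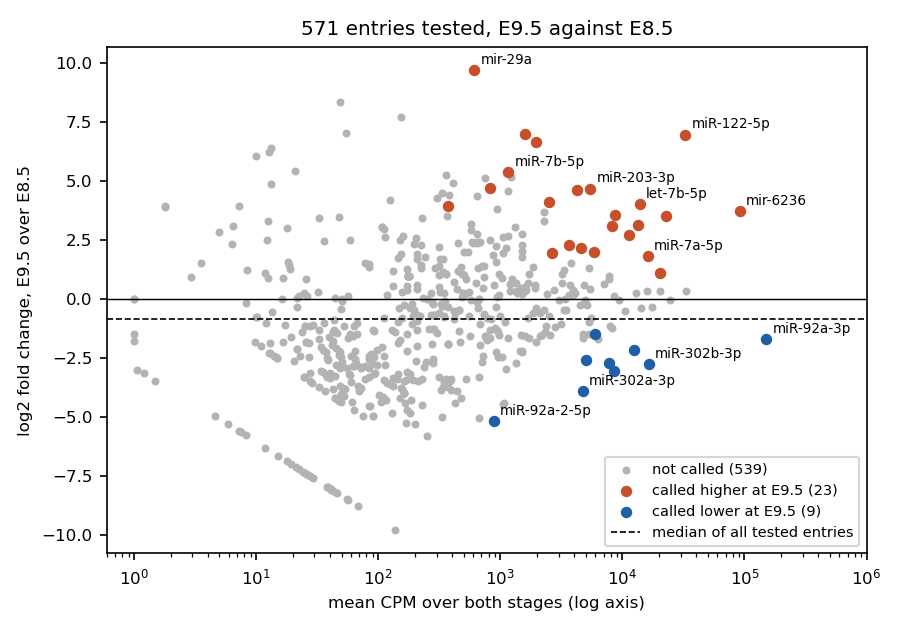
Log2 fold change of E9.5 over E8.5 (vertical axis) against the mean CPM of both stages (horizontal log axis) for the 571 tested entries, with entries called higher in red, called lower in blue and the rest in grey. The dashed line is the median of all tested entries (-0.84), and called entries lie at the right of the cloud, where 31 of 32 have a mean of at least 1000 CPM at one of the stages.

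Most called miRNAs came as groups that share a seed. Of the 27 called mature entries, 23 matched a RefSeq mature sequence (541 of the 633 mature entries of the table matched), they carried 14 different seeds, and 15 of them shared a seed with another called entry. These 15 are printed here because they make up the 6 shared seeds, with the seed in capitals, 5′ to 3′. The seeds of the miRNAs called lower were those of the miR-302, miR-92a and miR-10 families:
miR-302b-3p: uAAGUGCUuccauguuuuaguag
miR-302d-3p: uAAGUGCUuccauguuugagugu
miR-92a-3p: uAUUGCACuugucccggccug
miR-25-3p: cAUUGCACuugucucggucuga
miR-10a-5p: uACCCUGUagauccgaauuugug
miR-10b-5p: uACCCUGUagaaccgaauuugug
The seeds of the miRNAs called higher were those of the let-7, miR-7 and miR-27 families:
let-7a-5p: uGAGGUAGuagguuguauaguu
let-7b-5p: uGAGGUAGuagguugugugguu
let-7c-5p: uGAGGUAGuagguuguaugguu
let-7e-5p: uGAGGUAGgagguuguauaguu
let-7f-5p: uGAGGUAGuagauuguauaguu
miR-7a-5p: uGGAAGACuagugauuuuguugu
miR-7b-5p: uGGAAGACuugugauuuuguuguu
miR-27a-3p: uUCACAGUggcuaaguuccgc
miR-27b-3p: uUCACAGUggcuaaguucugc
In each of the 6 families every called member moved in 1 direction. Members that differ by few bases outside the seed, such as miR-10a-5p and miR-10b-5p or let-7a-5p and let-7c-5p, can exchange reads in counting, and the split between them is uncertain.

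The largest single component of the E8.5 libraries had the lowest adjusted p of the entries called lower. miR-92a-3p, which is made from the miR-17-92 cluster and its X-linked paralog and belongs to a group of miRNAs that promote proliferation, stood at 207145, 259300.0 and 223138 CPM at E8.5 and at 78759.6, 65600.5 and 67415 CPM at E9.5. It was the highest mature miRNA of both stages, and the libraries did not overlap (log2 fold change -1.70, SE 0.19, adjusted p = 1.62e-06). It is encoded at Mir92-1, in an exon of the long non-coding RNA Mir17hg (GRCm38, chr14:115044427-115044506, plus strand), and at Mir92-2, between genes (chrX:52741838-52741928, minus strand). miR-25-3p, which shares its seed but is encoded in an exon of Mcm7 (chr5:138165321-138165404, minus strand), had 8410.0, 9891 and 7759 CPM at E8.5 against 3751, 2584 and 3186 CPM at E9.5 (log2 fold change -1.45, SE 0.42, adjusted p = 0.0403). Its call was the weakest of the 32, and was lost without E8.5 replicate 1 (adjusted p = 0.178), E8.5 replicate 2 (adjusted p = 0.365), E8.5 replicate 3 (adjusted p = 0.102), E9.5 replicate 2 (adjusted p = 0.238) or E9.5 replicate 3 (adjusted p = 0.104). It was also lost in 8 of 11 alternatives that kept all E8.5 and E9.5 libraries. Among these were RLE scaling (log2 fold change -0.80, adjusted p = 0.329) and DESeq2 (log2 fold change -0.80, adjusted p = 0.134).

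The passenger strand of the X-linked hairpin, miR-92a-2-5p, was also called lower, from 681, 957 and 1030 counts at E8.5 to 1, 3 and 4 counts at E9.5 (log2 fold change -5.17, SE 1.37, adjusted p = 0.0242). This strand carries another seed than miR-92a-3p, and is shown beside it for that reason:
miR-92a-2-5p: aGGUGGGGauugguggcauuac
The call rests on E9.5 counts near the floor of 3, and was lost without E8.5 replicate 1 (adjusted p = 0.0574), E8.5 replicate 2 (adjusted p = 0.221), E8.5 replicate 3 (adjusted p = 0.0892) or E9.5 replicate 2 (adjusted p = 0.0836). Over the miR-17-92 clusters and their paralogs as a whole, 29 entries were tested, 3 were called lower (1.58% of all tested entries were) and none higher, 20 lay in all E9.5 libraries below all E8.5 libraries (27.5% of all tested entries did), and the median log2 fold change was -3.74. Mature members with a mean of at least 1000 CPM at either stage lay on both sides of this median. The log2 fold change was -1.70 for miR-92a-3p, -1.65 for miR-93-5p, -1.45 for miR-25-3p, -1.31 for miR-17-5p and 0.59 for miR-20a-5p. It was -5.17 for miR-92a-2-5p and -4.41 for miR-363-3p, which had 1, 5 and 9 counts at E9.5. The part of depth in the median was not tested. The mature members together took 26.2%, 29.1% and 28.9% of all counts at E8.5 and 8.26%, 8.63% and 5.84% at E9.5. Members of other seeds were less even at E9.5: miR-20a-5p had 48.7, 149.5 and 6726 CPM there and miR-93-5p 568, 4976 and 1340.2 CPM, and neither was called (adjusted p = 0.759 and 0.122).

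The miR-302 cluster, whose members are abundant in embryonic stem cells and act on the cell cycle, had 3 members that fell. miR-302b-3p, its most abundant arm, had 35534, 30469.8 and 20070.1 CPM at E8.5 and 4141, 5404 and 3186 CPM at E9.5 (log2 fold change -2.76, SE 0.54, adjusted p = 0.00151). miR-302a-3p went from 5847, 4291 and 3668 counts to 15, 86 and 25 counts (log2 fold change -3.88, SE 0.72, adjusted p = 0.00086). miR-302d-3p had 16173, 15908 and 8438 CPM and then 1803, 3471 and 986 CPM (log2 fold change -2.69, SE 0.69, adjusted p = 0.0197). In none of the 3 did the stages overlap, and all E9.5 libraries still held reads of each. miR-302d-3p was no longer called without E8.5 replicate 1 (adjusted p = 0.0657) or E8.5 replicate 2 (adjusted p = 0.159), and with RLE scaling (adjusted p = 0.0694). The hairpins of miR-302b and miR-302d lie in an intron of Larp7, on its opposite strand (chr3:127545228-127545301 and chr3:127545624-127545689). The precursor entry mir-302d had 165, 60 and 264 counts at E8.5 and 0 in every E9.5 library, a drop that was not called (adjusted p = 0.096). Of 12 tested entries of the cluster, 3 were called lower and 10 lay in all E9.5 libraries below all E8.5 libraries, against 1.58% and 27.5% of all tested entries. Since 1 mir-302 allele may be missing in some embryos, the part of genotype in these values was not tested.

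The miR-290 cluster, which pairs the miR-302 cluster in early embryonic cells and shares its seed in part, had no called entry among 14 tested (5.6% of all tested entries were called), with a median log2 fold change of -2.32. Its most abundant arm, miR-292a-5p, had 10793, 10522 and 11180.1 CPM at E8.5 and 6869, 3246 and 4906 CPM at E9.5 (log2 fold change -1.11, adjusted p = 0.287). The stages did not overlap, yet the difference did not pass the test. miR-294-3p, with the miR-302 seed, had 4173, 769 and 152 CPM at E9.5 against 1036, 1155 and 1512 CPM at E8.5, so that 1 E9.5 library lay above the E8.5 range and the other two below it.

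Both miR-10 members fell. miR-10a-5p lies between genes in the annotation used (chr11:96317165-96317274, plus strand) and miR-10b-5p in introns of Hoxd3 and Hoxd4 (chr2:74726070-74726137, plus strand), and such miRNAs follow the position of a cell along the body axis together with the Hox genes beside them. miR-10a-5p had 16666, 19230.0 and 25174 CPM at E8.5 and 7632, 4304 and 1694 CPM at E9.5 (log2 fold change -2.16, SE 0.50, adjusted p = 0.00745). miR-10b-5p had 12495, 13580.3 and 19333 CPM and 2273, 1826 and 1391 CPM (log2 fold change -3.05, SE 0.84, adjusted p = 0.03). The lowest E8.5 library lay above the highest E9.5 library for each. The call of miR-10a-5p was lost without E8.5 replicate 2 (adjusted p = 0.0655) or E8.5 replicate 3 (adjusted p = 0.0765), and that of miR-10b-5p without E8.5 replicate 2 (adjusted p = 0.102), E8.5 replicate 3 (adjusted p = 0.163) or E9.5 replicate 2 (adjusted p = 0.0657). In a fit of only the 6 libraries miR-10a-5p missed the threshold (adjusted p = 0.0634), and miR-10b-5p missed it with RLE scaling (log2 fold change -2.45, adjusted p = 0.104) and after thinning to the smallest library (adjusted p = 0.11). All 8 tested entries of the Hox clusters had a fold change below 0, as had 62% of all tested entries, and 2 were called lower (1.58% of all tested entries were).

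miR-143-3p, a miRNA of smooth muscle and mesenchyme, was called lower as well, from 12573, 7701 and 5779 CPM to 2014, 1111 and 1214 CPM (log2 fold change -2.59, SE 0.53, adjusted p = 0.00208), and kept its call without any single library. It was the only called entry of the mesenchymal list (12 tested, where 5.6% of all tested entries were called), and its partner miR-145a-5p had 17, 0 and 87 counts at E8.5 and 0, 1 and 0 at E9.5. The other mesenchymal markers had fitted fold changes on the other side, and none was called. The log2 fold change was 0.89 for miR-199a-3p, 1.08 for miR-199b-3p, 3.02 for miR-214-3p and 6.43 for miR-199a-5p (adjusted p = 0.621, 0.54, 0.324 and 0.112). miR-199a-3p had 567, 785 and 808 CPM at E8.5 and 114, 246 and 3667 CPM at E9.5, so only E9.5 replicate 3 was higher. miR-214-3p had 1, 3 and 1 counts and then 0, 2 and 3. miR-199a-5p had 0, 0 and 0 counts and then 2, 2 and 1. Neither exceeded the floor of 3 counts in these libraries. miR-199a-3p and miR-199b-3p have the same mature sequence and nearly the same counts at E9.5 (7, 23 and 145 against 7, 23 and 143). They are thus not separate measures, yet both enter the marker sum. Summed over the 6 mesenchymal markers, the level ran from 7288 to 13693 CPM at E8.5 and from 1655 to 8598 CPM at E9.5. The E9.5 maximum was replicate 3, where these entries stood at 3667 and 3616 CPM. The 2 endothelial markers, miR-126a-3p and miR-126a-5p, summed to 1821 to 2281 CPM at E8.5 and to 32.5 to 406 CPM at E9.5. miR-126a-3p itself, an arm made in vessel walls, had 1259, 677 and 1374 counts at E8.5 and 2, 37 and 13 counts at E9.5, and was not called (adjusted p = 0.13). In such bulk samples fewer cells of a type and less RNA per cell cannot be told apart. The part of these cell types in the other results was not tested.

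Among the miRNAs that rose, miR-122-5p stood out in size. miR-122 is the dominant miRNA of hepatocytes. It had 343, 190 and 320 counts in the E8.5 libraries and 5619, 6017 and 1533 counts in the far smaller E9.5 libraries. Scaled to the library, this was 593, 491 and 463 CPM against 91248, 64255 and 38765 CPM (log2 fold change 6.97, SE 0.37, adjusted p = 2.24e-12), and it was the second most abundant mature miRNA of E9.5 on average. Its precursor entry mir-122 rose from 23, 7 and 10 counts to 446, 161 and 18 counts (log2 fold change 7.01, SE 0.96, adjusted p = 2.8e-05). The opposite arm, miR-122-3p, had 0 counts in 5 of the 6 libraries and 1 in E9.5 replicate 3.

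miR-194-5p, a miRNA of gut and liver epithelium, was called higher from 56, 29 and 4 counts to 184, 3 and 68 counts (log2 fold change 4.73, SE 1.34, adjusted p = 0.0361). The rise was seen in 2 of the 3 E9.5 libraries, replicate 2 lay within the E8.5 range in CPM, and the call was lost without E8.5 replicate 1 (adjusted p = 0.0657), E8.5 replicate 2 (adjusted p = 0.105), E8.5 replicate 3 (adjusted p = 0.195) or E9.5 replicate 1 (adjusted p = 0.0852). It was lost as well with library totals alone, with only the 6 libraries and with the replicate number as a block (adjusted p = 0.0517, 0.065 and 0.071). The miR-192 hairpin lies on chromosome 19 beside Mir194-2, and miR-194-5p is also encoded at Mir194-1 on chromosome 1, beside Mir215. miR-192-5p had 16, 0 and 0 counts at E8.5 and 0, 2 and 0 at E9.5, and its fold change had a wide error (log2 fold change -0.16, SE 2.63, adjusted p = 0.98). miR-215-5p had 1 count in E8.5 replicate 2 and none in the other libraries.

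The miR-7 family, known from the endocrine pancreas, rose through both of its members. miR-7a-5p had 7962, 6819.9 and 6755 CPM at E8.5 and 31033, 28064 and 16538 CPM at E9.5 (log2 fold change 1.81, SE 0.27, adjusted p = 6.26e-05). miR-7b-5p had 46, 14 and 31 counts at E8.5 and 274, 138 and 36 counts at E9.5, or 79.6, 36.2 and 44.8 CPM against 4449.5, 1474 and 910.3 CPM (log2 fold change 5.40, SE 0.71, adjusted p = 1.82e-05). The stages did not overlap in CPM for either, and both kept their call without any single library. miR-7a-5p comes from Mir7-1 in an intron of Hnrnpk (chr13:58392779-58392886, minus strand) and from Mir7-2 (chr7:78888277-78888373, plus strand), and miR-7b-5p from Mir7b on chromosome 17, the last 2 between genes.

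Other pancreatic miRNAs were less clear. miR-375-3p, which acts in beta cells, had 19537, 17869 and 16224 CPM at E8.5 and 27818, 22597 and 17322 CPM at E9.5, ranges that overlap (log2 fold change 0.34, adjusted p = 0.418), so it was already among the 10 highest mature miRNAs in the endoderm. Of the acinar miRNAs, miR-216b-5p had 1, 0 and 48 counts at E8.5 and none in any E9.5 library (adjusted p = 0.377), and miR-217-5p had 1 count in E9.5 replicate 2 and none in the other libraries. Of the pancreatic markers, miR-7 and miR-375 were thus present in the cells labelled pancreas, and the acinar ones were not detectable there above a floor of 32.0 to 75.9 CPM.

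The let-7 family, which is held back in early embryonic cells by LIN28 and accumulates as cells differentiate, had 5 called members. Of these, let-7b-5p rose most, from 1582, 2891 and 317 CPM at E8.5 to 21793, 12879 and 43999 CPM at E9.5 (log2 fold change 4.04, SE 0.68, adjusted p = 0.000283). let-7f-5p went from 1422, 1581 and 1034 CPM to 26161, 4571 and 17169.9 CPM (log2 fold change 3.57, SE 0.55, adjusted p = 8.37e-05). For let-7a-5p the values were 1939, 3955 and 2141 CPM and 22654, 9547 and 39574 CPM (log2 fold change 3.16, SE 0.49, adjusted p = 8.46e-05). None of these overlapped between the stages, and the E9.5 libraries differed among themselves by several fold. let-7c-5p had 1411, 2284 and 1436 CPM and then 6366, 14149.5 and 23466 CPM (log2 fold change 3.10, SE 0.45, adjusted p = 5.61e-05), and let-7e-5p, with the smallest rise of the called members, 944, 1873 and 902 CPM and 5749, 3364 and 9129 CPM (log2 fold change 2.29, SE 0.46, adjusted p = 0.00208). All 5 kept their call without any single library. let-7g-5p moved to the same side, from 484, 253 and 505 CPM to 4027, 1569.8 and 6752 CPM, and missed the threshold (adjusted p = 0.0516). Of 19 tested let-7 entries, precursors included, 5 were called higher (4.03% of all tested entries were), 15 had a fold change above 0 (37.7% of all tested entries had), and the median log2 fold change was 3.10.

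At Mirlet7c-1, let-7c shares a host transcript with miR-99a, Mir99ahg on chromosome 16 (chr16:77598936-77599000 for Mir99a and chr16:77599657-77599750 for Mirlet7c-1, both on the plus strand). let-7c-5p is also encoded at Mirlet7c-2, in an exon of Lncppara on chromosome 15 (chr15:85706603-85706697, plus strand). Its counts cannot be assigned to either locus. miR-99a-5p was called higher too, from 26, 11 and 42 counts to 6, 10 and 75 counts (log2 fold change 3.94, SE 1.08, adjusted p = 0.0282). Most of that rise lay in E9.5 replicate 3, and without that library the log2 fold change was 1.19. The call was lost without E8.5 replicate 1 (adjusted p = 0.0977), E8.5 replicate 2 (adjusted p = 0.112), E8.5 replicate 3 (adjusted p = 0.134) or E9.5 replicate 3 (adjusted p = 0.459), and also with library totals alone, with only the 6 libraries and with the replicate number as a block (adjusted p = 0.0517, 0.0839 and 0.0999). The other entries of the miR-99, miR-100 and miR-125 genes were not called, such as miR-125b-5p with 123, 382 and 432 CPM at E8.5 and 861, 3663 and 1492 CPM at E9.5 (adjusted p = 0.0674).

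The clusters of miR-23, miR-27 and miR-24, which are expressed in many tissues, held 4 called members of 13 tested, all higher (4.03% of all tested entries were called higher). miR-24-3p was the most even, with 2449, 1813 and 2782 CPM at E8.5 and 8948, 8853 and 10039 CPM at E9.5 (log2 fold change 1.98, SE 0.37, adjusted p = 0.00086). miR-27b-3p had 2094, 2165 and 665 CPM and 5164, 2809 and 14388 CPM (log2 fold change 2.18, SE 0.59, adjusted p = 0.0261), and miR-23b-3p 1638, 958 and 606 CPM and 2761, 4357 and 5513 CPM (log2 fold change 1.98, SE 0.56, adjusted p = 0.0364). miR-27a-3p overlapped between the stages, at 614, 69.7 and 116 CPM and 3329, 587 and 10241 CPM (log2 fold change 4.14, SE 1.03, adjusted p = 0.0169). Apart from miR-24-3p these calls were lost without single libraries, and those of miR-27b-3p and miR-23b-3p also with library totals alone (adjusted p = 0.0517 and 0.0781) and with the replicate number as a block (adjusted p = 0.0666 and 0.073). That of miR-27b-3p was lost without E8.5 replicate 3 (adjusted p = 0.195) or E9.5 replicate 3 (adjusted p = 0.182). That of miR-23b-3p was lost without E8.5 replicate 2 (adjusted p = 0.0945), E8.5 replicate 3 (adjusted p = 0.216) or E9.5 replicate 3 (adjusted p = 0.0777), and that of miR-27a-3p without E8.5 replicate 2 (adjusted p = 0.0688), E8.5 replicate 3 (adjusted p = 0.161) or E9.5 replicate 3 (adjusted p = 0.121). The miR-24-1 and miR-27b hairpins lie on chromosome 13 in an exon of 2010111I01Rik (chr13:63301208-63301275 and chr13:63300712-63300784), and miR-24-2 and miR-27a on chromosome 8.

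miR-21a-5p, encoded in an exon of Vmp1 (chr11:86584067-86584158, minus strand) and present in most tissues, rose from 3479.6, 3208 and 2129.6 CPM to 19552, 11555 and 27639 CPM (log2 fold change 2.74, SE 0.41, adjusted p = 7.48e-05), and no single library decided its call. miR-22-3p, from an exon of its own host gene Mir22hg, rose from 281, 121 and 133 counts to 431, 117 and 643 counts (log2 fold change 4.63, SE 1.19, adjusted p = 0.0197), which was lost without E8.5 replicate 2 (adjusted p = 0.0655) or E8.5 replicate 3 (adjusted p = 0.163).

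Of 15 tested entries of epithelial miRNAs 2 were called, both higher (4.03% of all tested entries were called higher). The mature members took 1.15% to 1.29% of all counts at E8.5 and 2.43% to 3.61% at E9.5. miR-203-3p, best known from stratified epithelia, had 520, 81 and 73 counts at E8.5 and 111, 226 and 1076 counts at E9.5 (log2 fold change 4.69, SE 0.98, adjusted p = 0.00278). Its CPM at E9.5 were 1803, 2413 and 27209, so that replicate 3 exceeded the other two by about an order of magnitude. Without that library the log2 fold change was 2.40 and the call was lost (adjusted p = 0.0942). The precursor entry mir-203 had 47, 2 and 18 counts and then 0, 5 and 456 counts (log2 fold change 6.66, SE 1.79, adjusted p = 0.0261), and with E9.5 replicate 3 left out the log2 fold change turned to -0.47. Its call was lost without E8.5 replicate 2 (adjusted p = 0.102), E8.5 replicate 3 (adjusted p = 0.192) or E9.5 replicate 3 (adjusted p = 0.861), and also with only the 6 libraries and with the replicate number as a block (adjusted p = 0.0766 and 0.129).

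The miR-200 family, which maintains the epithelial state by repressing Zeb1 and Zeb2, was not called member by member. miR-200b-3p had 2499, 3338 and 3285 CPM at E8.5 and 9256, 9312 and 4096 CPM at E9.5 (log2 fold change 1.31, adjusted p = 0.065), and miR-200c-3p 5581, 6373 and 4603 CPM and 8769, 6429 and 10671 CPM (adjusted p = 0.283). miR-200a-3p had 403, 235 and 529 CPM and 3215, 1335 and 3287 CPM (adjusted p = 0.0545). In each of these 3, every E9.5 library lay above every E8.5 library. The sum over the 7 epithelial markers ran from 9260 to 11353 CPM at E8.5 and from 20995 to 49032 CPM at E9.5, with a median of 25203 CPM. The highest of these was E9.5 replicate 3, where miR-203-3p made up 27209 CPM of the sum.

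To ask whether members of a seed family add up, counts were summed over mature entries with the same seed and tested in the same model. A mature entry without a matched sequence stayed a family of its own. Of 308 seed families tested, 22 were called, which is 7.14%, with 7 lower and 15 higher. Among the 22 were miR-122-5p, miR-143-3p, miR-23b-3p and miR-302a-3p as such unmatched entries, so miR-302a-3p was not summed with miR-302b-3p and miR-302d-3p. The summed fit called both families of the miR-200 group, whose near-identical seeds are shown here because neither family had a called member:
miR-200b-3p: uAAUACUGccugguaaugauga
miR-200c-3p: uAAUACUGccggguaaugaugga
miR-429-3p: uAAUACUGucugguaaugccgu
miR-200a-3p: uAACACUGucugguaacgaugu
miR-141-3p: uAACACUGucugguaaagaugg
The family of miR-200b, miR-200c and miR-429 was tightly grouped, with 10108, 11350.4 and 10058 CPM of the mature total at E8.5 and 23502, 23260.5 and 23436 CPM at E9.5 (log2 fold change 1.16, SE 0.29, adjusted p = 0.00741). The family of miR-141 and miR-200a had 591, 314 and 630.0 CPM and 3997, 1890.4 and 4542 CPM (log2 fold change 2.76, SE 0.78, adjusted p = 0.0227). The stages did not overlap in either family. In the second family the rise was that of miR-200a-3p alone. miR-141-3p had 80, 24 and 2 counts at E8.5 and 1, 3 and 1 at E9.5, and as an entry went the other way (log2 fold change -1.44, adjusted p = 0.635). The call of the miR-200b family was kept in every alternative and without each library, while that of the miR-141 and miR-200a family was lost without E8.5 replicate 1 (adjusted p = 0.107), E8.5 replicate 2 (adjusted p = 0.0774) or E9.5 replicate 3 (adjusted p = 0.0814), and with upper-quartile scaling (adjusted p = 0.0504). CPM of seed families are shares of mature counts only and are therefore higher than those of single entries above.

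The let-7 seed family, with 9 mature members, held 9154, 13982 and 7903 CPM at E8.5 and 108610.0, 68260.3 and 195288 CPM at E9.5 (log2 fold change 3.58, SE 0.32, adjusted p = 8.47e-10). The miR-92a seed family, with 6 members, held 244120.0, 299718 and 283445 CPM and 103307, 102760.0 and 99776 CPM (log2 fold change -1.44, SE 0.18, adjusted p = 1.26e-06). Between them the order of the libraries turned: at E8.5 the miR-92a family exceeded let-7 in each library, and at E9.5 let-7 was the higher in replicates 1 and 3. The seed shared by miR-302b, miR-302d and 3 miR-290 arms fell (log2 fold change -2.19, SE 0.42, adjusted p = 0.000564). A further miR-290 seed, that of miR-291a-5p and miR-291b-5p, went from 2255, 1618 and 3236 CPM to 100.4, 103 and 104 CPM and was called only as a sum (log2 fold change -4.53, SE 1.34, adjusted p = 0.0308). That call was lost without E8.5 replicate 1 (adjusted p = 0.075), E8.5 replicate 2 (adjusted p = 0.108), E8.5 replicate 3 (adjusted p = 0.244), E9.5 replicate 1 (adjusted p = 0.0563) or E9.5 replicate 2 (adjusted p = 0.0683). miR-31-5p and miR-382-5p were called as seed families of 1 member (log2 fold change 4.14, SE 1.15, adjusted p = 0.0195 for miR-31-5p and log2 fold change 1.23, SE 0.33, adjusted p = 0.0145 for miR-382-5p), although neither was called as an entry. As an entry miR-382-5p, with the same counts, had a log2 fold change of 0.98 (adjusted p = 0.0957). Besides summing, the seed fit leaves out precursor entries and tests 308 features rather than 571. The part of each in the calls it gained was not tested. The call of miR-31-5p was lost without E8.5 replicate 2 (adjusted p = 0.0862), E8.5 replicate 3 (adjusted p = 0.0936) or E9.5 replicate 2 (adjusted p = 0.0764), and with only the 6 libraries (adjusted p = 0.078). The call of miR-382-5p was lost without E8.5 replicate 1 (adjusted p = 0.075) or E9.5 replicate 3 (adjusted p = 0.0814), and with library totals alone or upper-quartile scaling (adjusted p = 0.0525 and 0.077).

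**Figure D2:**
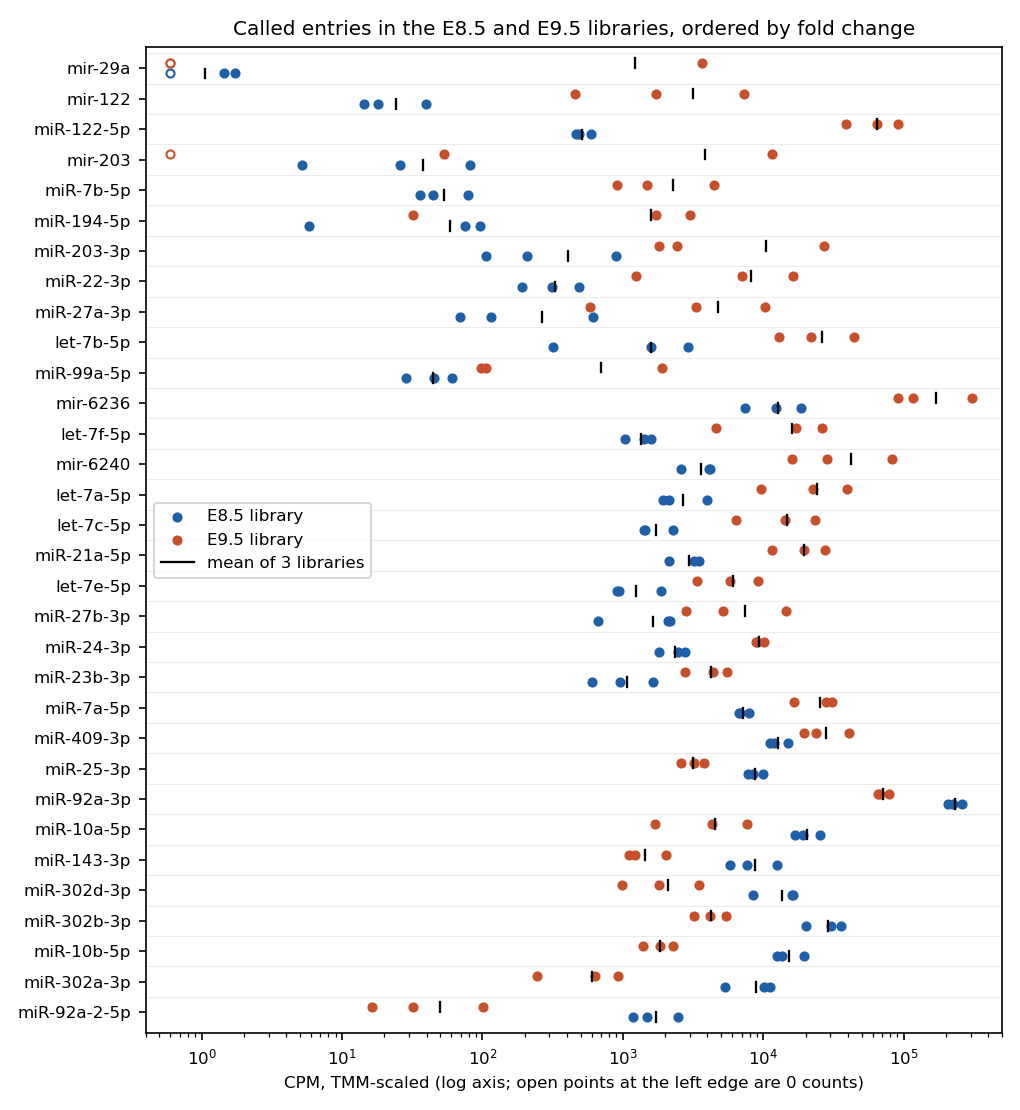
CPM (horizontal log axis) of the 32 called entries, 1 row each and ordered by fold change, in the 3 E8.5 libraries (blue) and the 3 E9.5 libraries (red), with black ticks at the stage means and open points for 0 counts. The stages do not overlap in 28 rows, and in mir-29a and mir-203 the red mean rests on 1 library.

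Of the large imprinted Dlk1-Dio3 cluster on chromosome 12, 103 entries were tested and 1 was called, against 5.6% of all tested entries. This was miR-409-3p, in an intron of the long non-coding RNA Mirg (chr12:109743158-109743236, plus strand), with 11203, 15068 and 11991 CPM at E8.5 and 23547, 19574 and 40611 CPM at E9.5 (log2 fold change 1.13, SE 0.30, adjusted p = 0.0225). Its call was lost without E8.5 replicate 1 (adjusted p = 0.113), E8.5 replicate 3 (adjusted p = 0.163) or E9.5 replicate 3 (adjusted p = 0.136), and with library totals alone (log2 fold change 0.86, adjusted p = 0.056). The mature members of the cluster took 10.1% to 10.4% of all counts at E8.5 and 9.97% to 16.1% at E9.5, and the median log2 fold change of its entries was 0.12. The most abundant of the rest, miR-379-5p, had 12718, 15332 and 13602 CPM and 17473, 18774 and 17347 CPM, higher in every E9.5 library but not called (adjusted p = 0.4). None of the 38 tested entries of the Sfmbt2 cluster and none of the 14 tested entries of other imprinted loci was called.

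Several of the most abundant miRNAs differed little. miR-182-5p and miR-183-5p, processed from 1 cluster and known from sensory epithelia, had 29185 ± 1894 and 24886 ± 3984 CPM at E8.5 (mean ± SD, n = 3) and 37488 ± 6046 and 24208 ± 4346 CPM at E9.5. miR-26a-5p had 19235 ± 1096 and 15506 ± 2225 CPM at these stages, and miR-30d-5p 12352 ± 2699 and 8828 ± 3474 CPM. Their log2 fold changes were 0.36, -0.04, -0.31 and -0.49, and none was called (adjusted p = 0.279, 0.922, 0.472 and 0.39). For miR-182-5p every E9.5 library lay above every E8.5 library, while the stages overlapped for the others. No entry of the lists around miR-183, miR-26, miR-30, miR-148, miR-181, miR-130, or miR-15 and miR-16 passed the test in either direction, where 5.6% of all tested entries did. The strip plot of the lists sets their medians beside that of all entries.

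**Figure D3:**
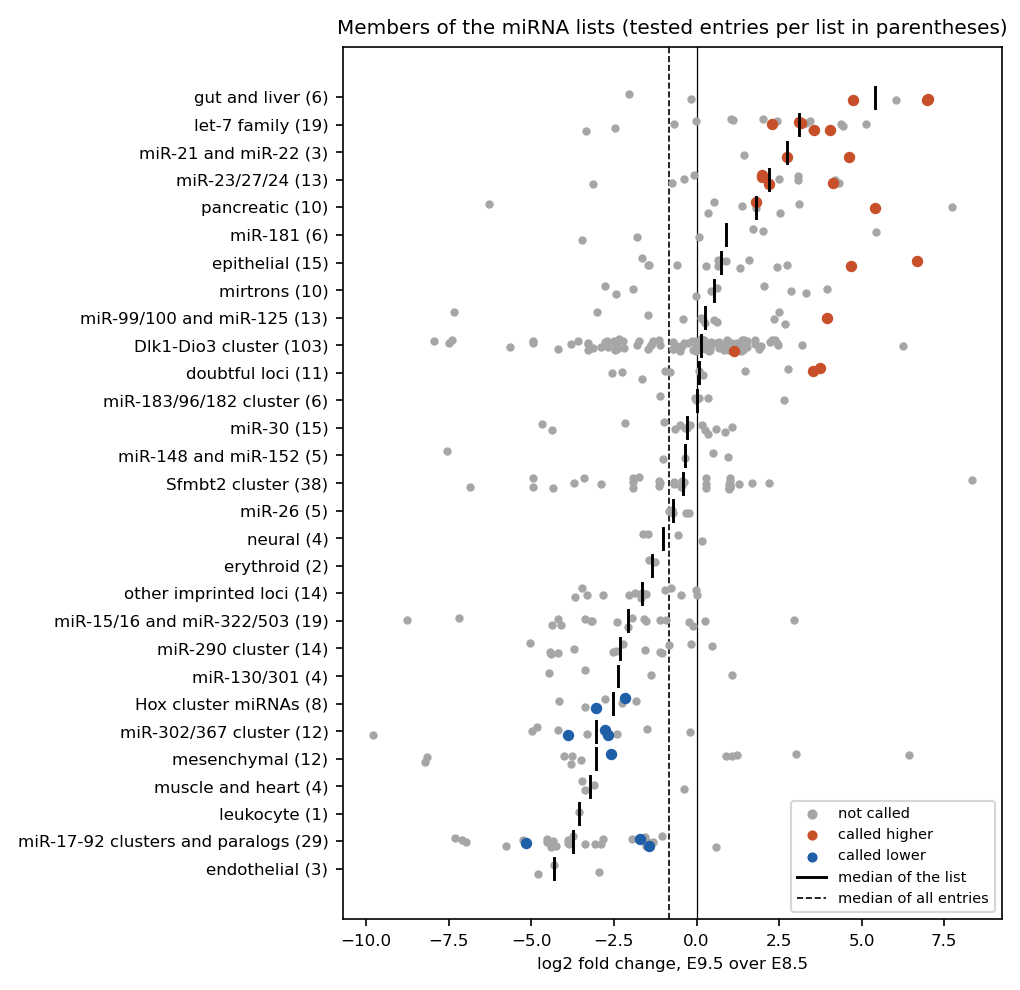
Log2 fold change of E9.5 over E8.5 (horizontal axis) of each tested member of the 29 miRNA lists, 1 row a list, with called members in red (higher) and blue (lower), the list median as a black bar and the median of all tested entries (-0.84) as a dashed line. Medians run from -4.31 (endothelial) to 5.39 (gut and liver), and the lower calls sit in the miR-17-92, miR-302, Hox and mesenchymal rows.

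Of the markers of blood, muscle and neural cells none was called, and several were carried by single libraries. Few of them had enough counts to be tested (2 erythroid, 1 leukocyte, 1 muscle and heart and 3 neural), and 5.6% of all tested entries were called. The leukocyte markers were split. miR-223-3p had 0, 0 and 1 counts at E8.5 and 103, 0 and 105 counts at E9.5, and was not tested. The 1 that was tested, miR-155-5p, lay lower in every E9.5 library. It had 100, 163 and 39 counts at E8.5 and 2, 0 and 1 at E9.5 (log2 fold change -3.55, adjusted p = 0.275). miR-142a-5p had 0, 0 and 40 counts and then 0, 1 and 0, and was not tested. miR-1a-3p, the main miRNA of heart and skeletal muscle, had 26399, 15554 and 6282 CPM at E8.5 and 5261, 6354 and 25464 CPM at E9.5, and its partner miR-133a-3p reached 1391 CPM in E9.5 replicate 3 with no count in the other two E9.5 libraries. The 3 erythroid markers in the table summed to 460 to 1307 CPM at E8.5 and 48.7 to 673 CPM at E9.5, with miR-451a at 0 to 1 count in every library. The 4 neural markers summed to 996 to 1966 CPM and 97.4 to 1164 CPM. Their part in the other results was not tested.

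Precursor entries made up 10.6%, 10.6% and 10.4% of the counts at E8.5 and 20.7%, 21.8% and 36.03% at E9.5. The difference of the means was 15.7 percentage points, in an exact two-sided permutation test p = 0.1, which is the smallest p that 3 against 3 libraries can give. Most of it was mir-6236 and mir-6240, entries whose annotation as miRNAs is doubtful. mir-6236 had 7168, 7179 and 5114 counts at E8.5 and 7160, 8567 and 12046 counts at E9.5 (log2 fold change 3.74, SE 0.43, adjusted p = 3.03e-06), and mir-6240 2390, 1612 and 1779 and 981, 2641 and 3249 counts (log2 fold change 3.54, SE 0.52, adjusted p = 5.61e-05). Without both, precursors took 8.92% ± 0.439 of counts at E8.5 and 9.66% ± 0.943 at E9.5 (SD, n = 3), a difference of 0.744 points (exact two-sided permutation test, p = 0.4). The remaining called precursor, mir-29a, had 1, 0 and 1 counts and then 0, 0 and 145 counts (log2 fold change 9.71, SE 2.56, adjusted p = 0.0257), and its log2 fold change was -2.28 without E9.5 replicate 3. Its call was lost without E8.5 replicate 1 (adjusted p = 0.0535), E8.5 replicate 2 (adjusted p = 0.102), E8.5 replicate 3 (adjusted p = 0.171) or E9.5 replicate 3 (adjusted p = 0.748), and with the replicate number as a block (adjusted p = 0.26).

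Because the E9.5 libraries were so much smaller, the counts of the entries that rose were set side by side before any scaling. For 14 of the 23 entries called higher the mean count at E9.5 was above that at E8.5, which held for 44 of all 571 tested entries, and for the other 9 it was not. In 10 of the 23 the mean counts of the stages lay within a factor of 2 of each other. let-7a-5p had a mean of 1378 counts at E8.5 and 1285 at E9.5, and let-7c-5p 898 and 882. Only miR-122-5p and let-7b-5p had more counts in every E9.5 library than in any E8.5 library. E9.5 replicate 3 was the highest of the 6 libraries in CPM for 17 of the 23, and it was also the smallest library, with the lowest TMM factor of all 12 (0.732). The part of depth and of this library in the rises was not tested.

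**Figure D4:**
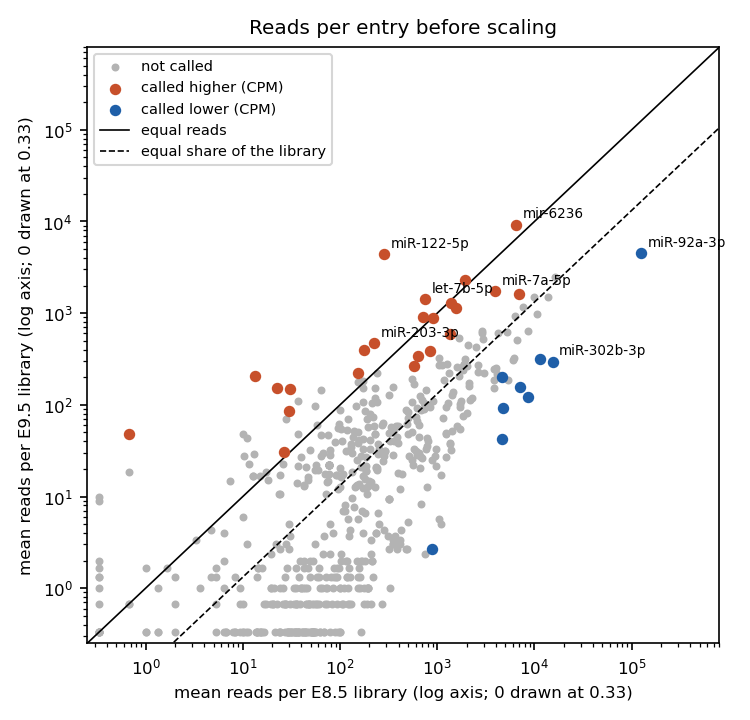
Mean counts per E9.5 library (vertical log axis) against mean counts per E8.5 library (horizontal log axis) for the 571 tested entries before scaling, with entries called higher in red and lower in blue. The solid line marks equal counts and the dashed line the ratio of the mean library totals; of the red points, 14 lie above the solid line and 9 on or below it, and all blue points lie below the dashed line.

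The later Pdx1-Cre libraries show where the levels of E9.5 stood in the following days, as a description. Of the 23 entries called higher, 17 had a lower mean CPM at E10.5 than at E9.5. The 6 that were as high or higher at E10.5 were miR-122-5p, its precursor mir-122, miR-7a-5p, miR-7b-5p, miR-24-3p and miR-99a-5p. miR-7a-5p, for example, averaged 25212 CPM at E9.5 and then 55369 (E10.5) and 41701 (E11.5). let-7b-5p averaged 26224, 3152 and 1875 CPM, and at E11.5 stood near its E8.5 level of 1597 CPM, while let-7e-5p averaged 6080.4, 5996 and 14831 CPM. All 9 entries called lower were still below E8.5 at E11.5. Of these, miR-302b-3p went on from 4244 CPM at E9.5 to 262 CPM at E11.5, while miR-92a-3p averaged 70592 and 81455 CPM.

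**Figure D5:**
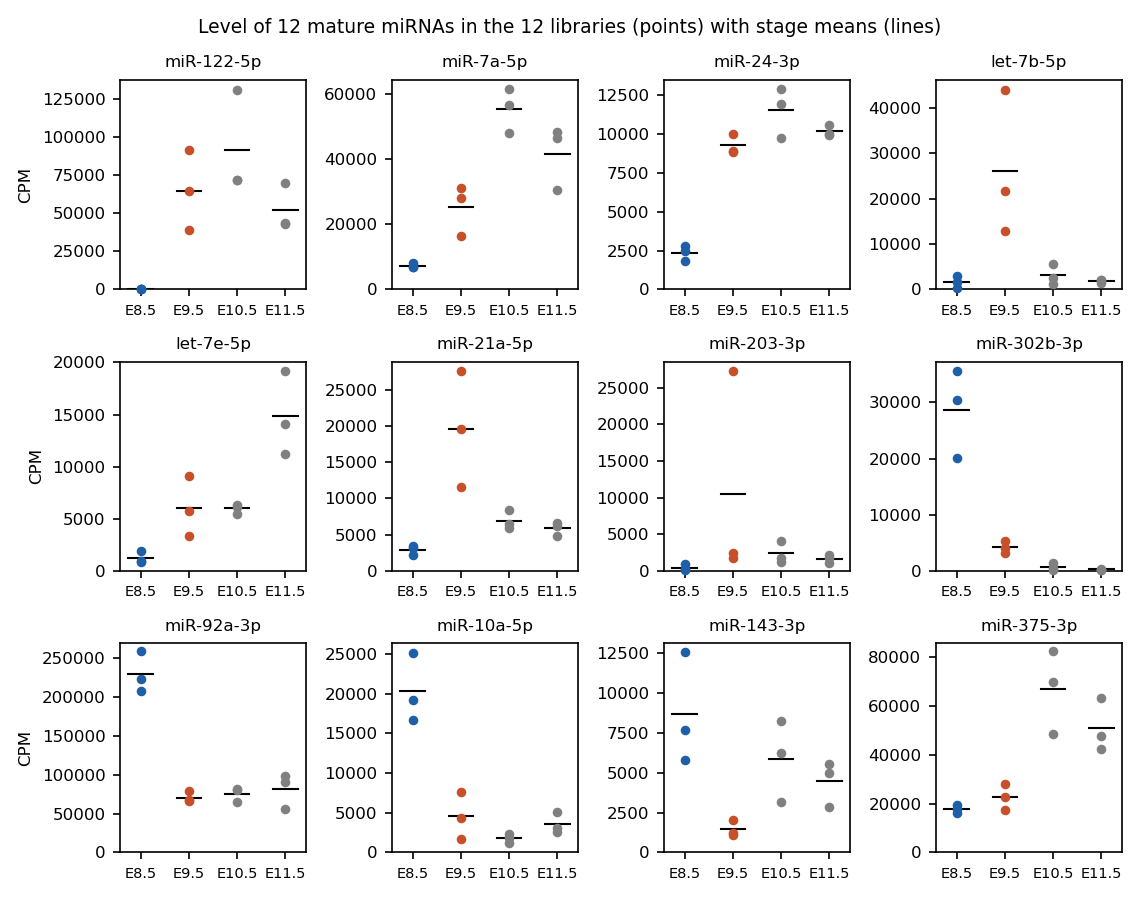
CPM (vertical axes, from 0) of 12 mature miRNAs in each of the 12 libraries by stage, with E8.5 in blue, E9.5 in red, later stages in grey and the mean of 3 libraries as a black line. miR-7a-5p and miR-122-5p stay up after E9.5, let-7b-5p, miR-21a-5p and miR-203-3p have their highest mean at E9.5, and miR-302b-3p and miR-92a-3p are highest at E8.5.

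Entries seen at 1 stage alone were almost all E8.5 entries: 24 had at least 1 count in each E8.5 library and none in any E9.5 library, and 1 the reverse. Besides mir-302d they included miR-140-5p, with 22, 78 and 69 counts at E8.5, and miR-331-3p, with 34, 44 and 109. The 1 reverse case was miR-199a-5p, a mesenchymal miRNA, with 2, 2 and 1 counts at E9.5. At the depth of E9.5 an absence is not detectable below the floor of 32.0 to 75.9 CPM, and none of these entries was called.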

How the data were processed

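The authors deposited a table of unnormalised read counts, 1 column a library, made with COMPSRA on mm10 (per the study's methods: adapter and random bases trimmed, length filter, STAR alignment, annotation and counting within COMPSRA). No counting of molecules by random bases is stated, so the floors cover counting error alone. There were 1053 entries, 633 mature and 420 precursor. All 12 libraries entered 1 fit with stage as factor (edgeR 4.0.16 in R 4.3.3, quasi-likelihood test, TMM factors 0.732 to 1.17, filterByExpr with minimum count 10 and minimum total 15, Benjamini-Hochberg adjustment over the 571 tested entries), and E9.5 was contrasted with E8.5. The standard error (SE) was the log2 fold change divided by the square root of F (prior count 0.125). Over all entries the biological coefficient of variation came to 1.19. CPM used TMM-scaled totals. Seeds and mature sequences came from RefSeq and coordinates from the annotation of GRCm38.p6, and no coordinate is given in the deposited table. The script was tested on simulated data.

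The members and the 29 lists were chosen with earlier results of these data known. Entries were named if called, among the 10 highest mature entries of a stage, list members of at least 1000 CPM, cell type markers, or seen at 1 stage alone (up to 5). miR-31-5p, miR-291a-5p, miR-192-5p and miR-145a-5p are named as members of such lists or seed families. Alternatives were RLE, upper-quartile (chosen after seeing the data) and unscaled library totals, other filters, DESeq2 1.42.0, only the 6 libraries, thinning to 53996 counts, mature entries alone, no mir-6236 and mir-6240, a replicate block and leaving out each library. No replicate pair agreed within sampling noise (chi-square per degree of freedom 42.7 to 101).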

Additional observations from a re-analysis of the deposited data

How the results depend on the processing

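The number of called entries (32) moved to 50 with RLE scaling, 49 after thinning every library to 53996 counts and 79 with DESeq2, where 189 entries had no adjusted p. DESeq2 also called 70 list members, against 31, and 49 seed families, against 22. The other alternatives that kept all E8.5 and E9.5 libraries gave 26 to 43 called entries. Leaving out 1 library gave 21 to 44 called entries, with 19 to 31 of the 32 still called. Of the 32 called entries, 17 kept their call in every alternative and without each library, 15 lost it without at least 1 library and 11 in at least 1 other alternative. Of 884 single values recomputed, 2 changed sign, both without E9.5 replicate 3 (mir-203, -0.47, and mir-29a, -2.28). The leave-out range was -0.47 to 7.86 for mir-203 and -2.28 to 10.59 for mir-29a. The cause was not tested where a value moved. The replicate numbers do not pair the samples (correlations of same-numbered deviations 0.00496, -0.148 and -0.0313), and a fit with the replicate number as a block called 26 entries, 18 higher and 8 lower. The shallow E9.5 libraries limit what can be called: 176 to 258 entries reached 10 counts there.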

Other observations

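In a count outside the comparisons above, both arms of a hairpin were set against each other, which does not depend on library scaling. Of 39 hairpins with both arms in the table and at least 50 reads in each of the 6 libraries, 35 had the same major arm in all 6, and in 5 the share of reads from the 5p arm did not overlap between the stages. The 5p arm of miR-292a, a hairpin of the miR-290 cluster, took 84.4% ± 5.36 of its reads at E8.5 and 98.0% ± 0.713 at E9.5 (SD, n = 3). The 5p arm of miR-200a took 21.3% ± 20.7 at E8.5 and 1.26% ± 1.55 at E9.5, and that of miR-25 8.28% ± 3.21 and 1.84% ± 1.33. The other two, miR-23b and miR-382, had nearly all of their reads from 1 arm at both stages. The miR-200a shares at E8.5 ran from 8.27% to 45.2%. These shares were not tested, and the E9.5 values of the hairpins rest on 126 to 428 reads per library for miR-200a, miR-25 and miR-292a. With 3 against 3 libraries an exact two-sided permutation test cannot go below p = 0.1, so some of 39 hairpins can separate by chance.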
